A study of Solea senegalensis with 8 samples.

Results

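The miR-200 family of Senegalese sole (Solea senegalensis) was followed from gastrulation to metamorphosis in 8 small RNA libraries. Its members were taken as the miRNAs named miR-200, miR-141 or miR-429, with any letter or strand, which gave 8 of the 320 miRNAs of the deposited table: miR-200a-3p, miR-200a-5p, miR-200b-3p, miR-200b-5p, miR-200c, miR-141, miR-429-3p and miR-429-5p. All 8 passed the filter for testing, a minimum of 1 read in at least 2 libraries, as did 295 of the 320 miRNAs. miR-200a-5p passed it through the 75Ep libraries alone, and miR-200c and miR-141 through later libraries alone, so that against 75Ep only a fall of the first and a rise of the other 2 could be called.

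The 2 groups differ in the water temperature of the embryo, 21°C or 15°C, which ended at hatching. From then on both were kept in water close to 21°C. The eggs came from broodstock held in captivity. Whole embryos were sampled at 75% epiboly (75Ep) and at 20 somites (20S), and whole larvae at hatching (Hatch) and at the climax of metamorphosis (Met), when the eye migrates across the head. For each stage and temperature, triplicate samples were pooled into 1 SOLiD library, which leaves no replicate library within a stage and temperature. Larvae of the 21°C and 15°C groups reached Met at different ages after hatching.

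In vertebrates, miR-200 genes usually lie in a miR-200b, miR-200a and miR-429 cluster and a miR-200c and miR-141 cluster. The seed, the 5′ stretch of a miRNA that pairs with its target, is shared by miR-200b, miR-200c and miR-429 on the one hand and by miR-200a and miR-141 on the other. In mammals, both groups keep cells epithelial by repressing ZEB1 and ZEB2, transcription factors that shut off the E-cadherin gene. In zebrafish, family members are found in the skin, in sensory epithelia and in the ion-transporting cells of the skin. In whole fish, fewer cells of a type and less RNA per cell cannot be told apart.

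The trimmed reads ranged between 2169069 and 4965849 per library, and the share of them assigned to the 320 miRNAs lay between 6.59% and 46.0%. At 21°C this share was 6.59% at 75Ep, 22.3% at 20S, 30.5% at Hatch and 17.9% at Met. At 15°C it was 6.84%, 23.1%, 24.9% and 46.0% at the same stages. Levels are given as percent of the trimmed reads, the deposited scale, and comparisons were repeated after rescaling to the summed miRNA reads and after centring each library on the median of the 179 miRNAs detected in all 8 libraries.

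The family amounted to 83057 reads over the 8 libraries, and 99.6% of them came from 3 strands. miR-200a-3p took 60.7%, miR-200b-3p 21.1% and miR-429-3p 17.9%. miR-200c had 225 reads in all, miR-141 had 31, miR-429-5p 29 and miR-200b-5p 5. The deposited values of miR-200a-5p add up to 4.19 reads. The mature miR-200a-3p and miR-141 are nearly the same in sequence, and so are miR-200b-3p and miR-200c, so reads could be split between the partners and the levels of miR-141 and miR-200c alone are uncertain.

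In the 21°C libraries, the 8 members together made up 0.0305% of the trimmed reads at 75Ep, 0.233% at 20S, 0.275% at Hatch and 0.231% at Met. In the 15°C libraries they made up 0.00516%, 0.191%, 0.314% and 0.757% at the same stages. In fold terms, the largest step between neighbouring stages thus lay between 75Ep and 20S in both temperature groups, and the 15°C library at Met stood above the other 7. As a share of miRNA reads, the family was at 0.463%, 1.05%, 0.900% and 1.29% at 21°C, and at 0.0754%, 0.826%, 1.26% and 1.65% at 15°C, in the order of the stages.

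At 21°C, miR-200a-3p had 298 reads at 75Ep (0.0137% of the trimmed reads), 3437 at 20S (0.134%), 4291 at Hatch (0.132%) and 6564 at Met (0.155%). At 15°C it had 58 reads at 75Ep (0.00207%), 2759 at 20S (0.0831%), 5933 at Hatch (0.138%) and 27045 at Met (0.545%). The 20S, Hatch and Met libraries all lay above both 75Ep libraries. Among the 320 miRNAs miR-200a-3p ranked 37th (21°C) and 65th (15°C) at 75Ep and 25th in both Met libraries.

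The 21°C libraries held 261 reads of miR-200b-3p at 75Ep (0.0120%), 903 at 20S (0.0352%), 2605 at Hatch (0.0800%) and 2176 at Met (0.0512%). The 15°C libraries held 52 at 75Ep (0.00186%), 1535 at 20S (0.0462%), 3901 at Hatch (0.0905%) and 6080 at Met (0.122%). miR-200b-3p was thus higher at Hatch than at 20S in both temperature groups, while the Met libraries lay on either side of the Hatch libraries.

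For miR-429-3p, the 21°C libraries gave 98 reads at 75Ep (0.00452%), 1639 at 20S (0.0639%), 2028 at Hatch (0.0623%) and 1033 at Met (0.0243%). The 15°C libraries gave 30 at 75Ep (0.00107%), 1921 at 20S (0.0579%), 3695 at Hatch (0.0857%) and 4421 at Met (0.0890%). The 21°C library at Met was thus the lowest after 75Ep, and the 15°C library at Met was the highest of the 8 on this scale. As a share of miRNA reads, the 15°C library at Met was at 0.193%, below all 20S and Hatch libraries (0.204% to 0.344%). In miRNA rank, miR-429-3p was 43rd (21°C) and 45th (15°C) at 20S but 85th (21°C) and 69th (15°C) at Met.

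**Figure D1:**
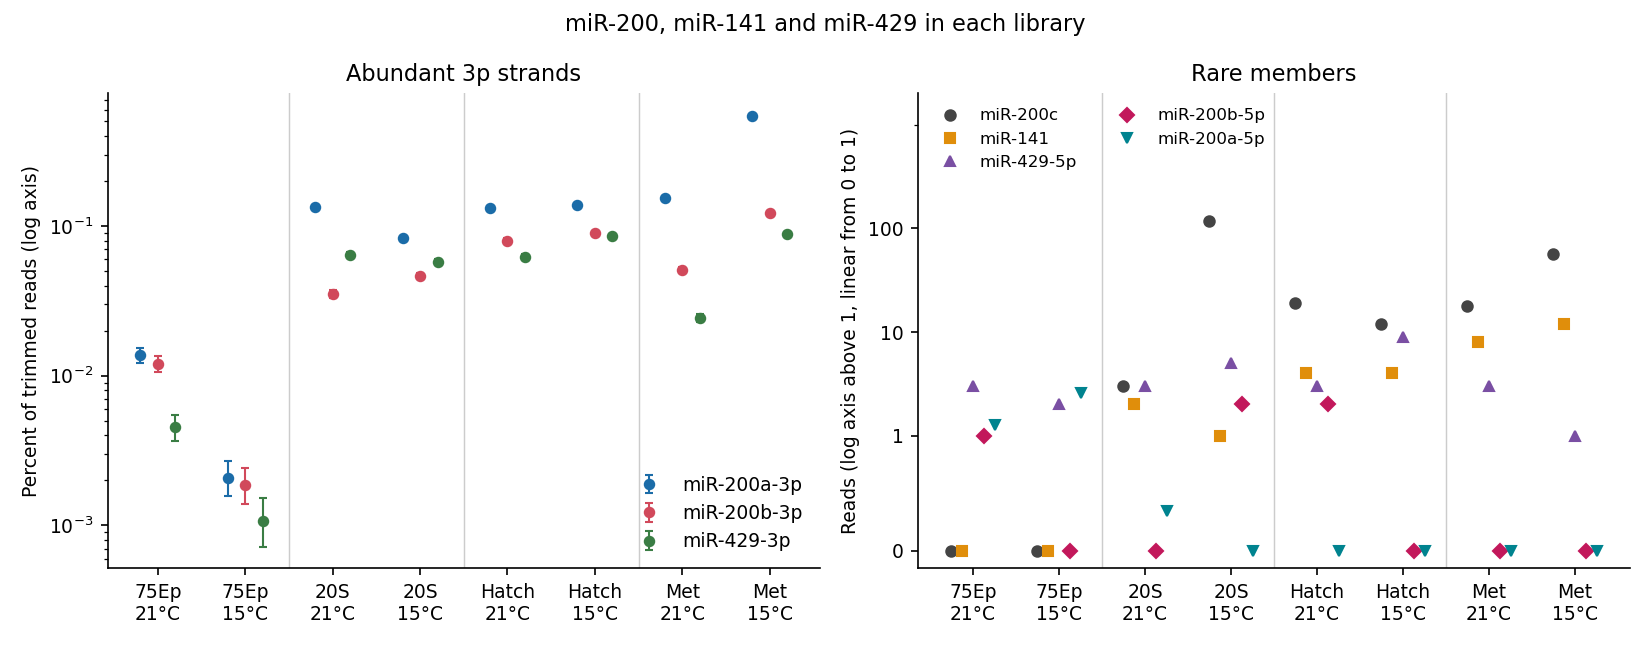
Left: percent of trimmed reads (log axis) of the 3 abundant strands in the 8 libraries, 21°C left of 15°C within each stage, with exact 95% counting intervals. Right: reads of the 5 rare members, on a log axis above 1 read. The 3 abundant strands sat between 0.00107% and 0.0137% at 75Ep and between 0.0243% and 0.545% afterwards, and of the rare members only miR-200c passed 12 reads.

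Between 75Ep and 20S, the abundant strands of both seed groups rose as a share of the trimmed reads. The comparison asks which miRNAs change while the body axis is segmented. With limma and stage and temperature as terms, the 2 temperatures of a stage standing as its libraries, miR-429-3p rose at 20S by 4.79 on the log2 scale (SE 0.97, adjusted p = 0.00879), miR-200a-3p by 4.31 (SE 1.06, adjusted p = 0.0155) and miR-200b-3p by 3.09 (SE 0.996, adjusted p = 0.0369). miR-200c was called as well, though only a rise could be called for it, since it had no read at 75Ep. With it, 4 of the 8 members rose, beside 39.3% of the 295 miRNAs tested. The 1 member called as lower, beside 1.02% of all miRNAs, was miR-200a-5p. Nothing is read from that call, since the filter left no other outcome and its values are not whole reads. The median change was 2.68 over the members and 2.15 over all 295. The members' median rests partly on miR-141, which had no read at 75Ep. It thus depends on the value put in for no reads and is not set against the 2.15.

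The step was smaller relative to the other miRNAs. Rescaled to the summed miRNA reads, the log2 differences of 20S over 75Ep were 3.03 for miR-429-3p (adjusted p = 0.0594), 2.55 for miR-200a-3p (adjusted p = 0.117) and 1.34 for miR-200b-3p (adjusted p = 0.336), beside a median of 1.19 over all miRNAs. Centred on the median miRNA, only miR-429-3p of the 3 kept its call, at 2.27 (adjusted p = 0.0480). The limma count of 4 fell to 0 without the 20S 21°C, the 20S 15°C or the Hatch 21°C library, to 1 without 75Ep 15°C and to 2 without Hatch 15°C, Met 21°C or Met 15°C, in fits with 1 residual degree of freedom less.

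Between 20S and Hatch no member passed the test in limma (unadjusted p below 0.05 for 0 of 8, and 0 by voom on the recovered reads), where 1.36% of all miRNAs rose and 0% fell. The log2 difference of Hatch over 20S was 1.08 (SE 0.996) for miR-200b-3p, 0.35 (SE 1.06) for miR-200a-3p and 0.26 (SE 0.97) for miR-429-3p. Centred on the median miRNA, the 3 values were -0.22, -0.94 and -1.03. The spread of these libraries did not allow a direction to be given for the step to hatching.

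Between Hatch and Met, again, 0 of the 8 members passed in limma, at an unadjusted p below 0.05, or by voom. In limma, after adjustment, 13.6% of all miRNAs rose and 4.07% fell. With 8 members, a count of 0 is near these shares and is not read as a trait of the family. The log2 difference of Met over Hatch was 1.11 (SE 1.06) for miR-200a-3p, -0.10 (SE 0.996) for miR-200b-3p and -0.65 (SE 0.97) for miR-429-3p. The sign of miR-200a-3p turned to -0.36 without the Met 15°C library. The other 2 turned to 0.88 (miR-200b-3p) and 0.58 (miR-429-3p) without the Met 21°C library, and miR-200b-3p also turned to 0.16 without Hatch 15°C.

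Over the whole period, Met against 75Ep, the 3 abundant strands rose, as did most miRNAs tested. miR-200a-3p rose by 5.77 on the log2 scale (SE 1.06, adjusted p = 0.00159), miR-429-3p by 4.40 (SE 0.97, adjusted p = 0.00359) and miR-200b-3p by 4.07 (SE 0.996, adjusted p = 0.00602). With miR-200c and miR-141, for which only a rise could be called, 5 of the 8 members rose, a share close to the 63.4% of all miRNAs. miR-200a-5p was again the 1 called as lower, beside 5.42%, with the same limit. The median change was 4.24 over the members as fitted and 4.07 over all 295. With miR-200c, miR-141 and miR-200a-5p at their bounds, which take 3 reads over both libraries of a stage where none was found, the median of the members was 2.79. No bounds were put on the other miRNAs, so this value cannot be set against the 4.07. In the F-test over the 4 stages 6 of the 8 members were called, or 5 if miR-200a-5p is set aside, beside 68.8% of all miRNAs. These 5 were the 3 abundant strands with miR-200c and miR-141. The calls of the last 2 depend on the value put in for no reads at 75Ep, so the count is not read as a result about the family. Without the Met 15°C library the count of members that rose was 2, with miR-200b-3p at an adjusted p of 0.119 and miR-429-3p at 0.0723, and the count in the F-test was 2 without 75Ep 15°C and 3 without 75Ep 21°C.

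The 3 abundant strands fell on both sides of the threshold after rescaling. Rescaled to the summed miRNA reads, miR-200a-3p still rose at Met by 3.67 (SE 0.89, adjusted p = 0.0218), while the difference was 2.31 for miR-429-3p (adjusted p = 0.0589) and 1.97 for miR-200b-3p (adjusted p = 0.120). All miRNAs had a median of 2.55 on this scale. Centred on the median miRNA, the difference was 1.30 for miR-200a-3p (adjusted p = 0.187), -0.06 for miR-429-3p and -0.40 for miR-200b-3p, beside a median of 0.61 over all miRNAs. The medians over all miRNAs include those with no read at a stage, whose changes depend on the value put in for no reads. Centring itself sets the median of the 179 miRNAs detected in every library to the same level in each. On that scale the changes of miR-200b-3p (SE 0.64) and miR-429-3p (SE 0.56) were smaller than their standard errors, so no direction is given for them. None of the 3 passed the test.

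**Figure D2:**
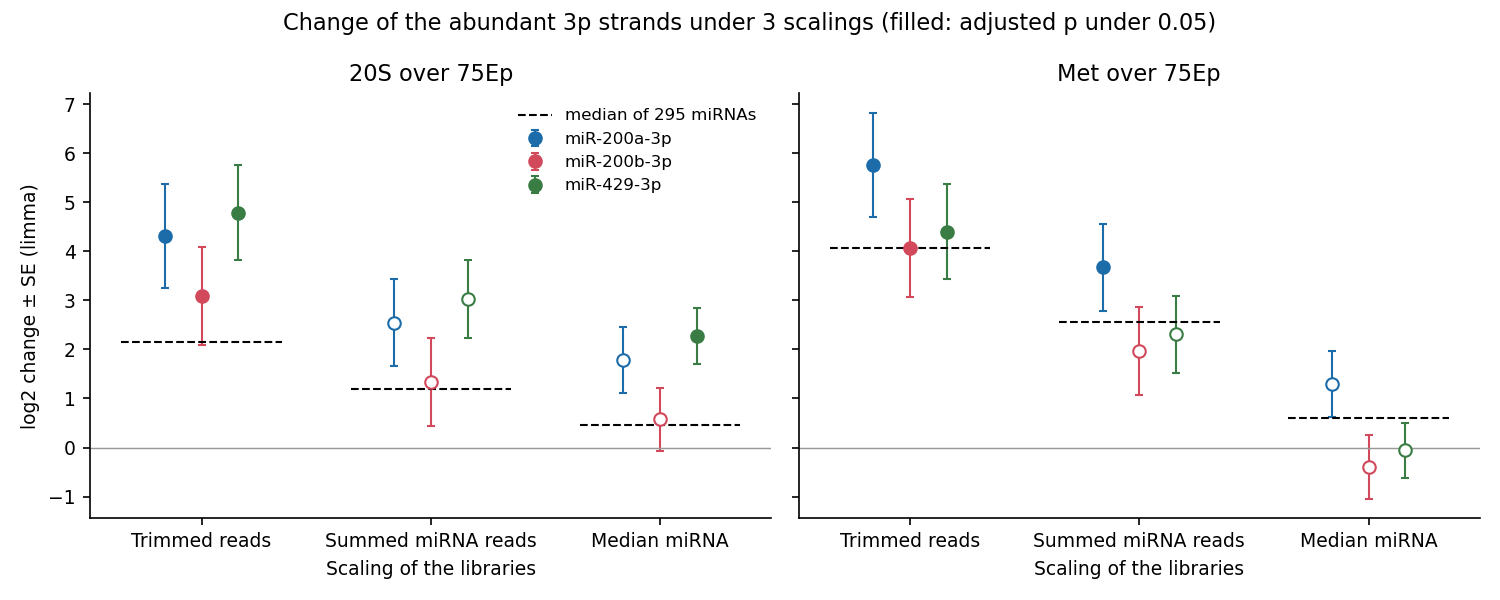
Change on the log2 scale with its standard error (limma) of the 3 abundant strands at 20S over 75Ep (left) and Met over 75Ep (right), with libraries scaled to trimmed reads, to summed miRNA reads or to the median miRNA. Filled points passed an adjusted p of 0.05 and dashed lines give the median of the 295 miRNAs, which at Met over 75Ep was 4.07, 2.55 and 0.61 in the 3 scalings.

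The make-up of the family, which no scaling of the libraries can alter, stood apart in the Met libraries and, for miR-200b-3p, in the 75Ep libraries. At 21°C, miR-200a-3p was 45.0% of the members' reads at 75Ep, 57.4% at 20S, 47.9% at Hatch and 67.0% at Met. At 15°C it was 40.1%, 43.5%, 43.8% and 71.9% at the same stages, so both Met libraries lay above the other 6. miR-429-3p took 10.5% (21°C) and 11.8% (15°C) at Met, below the 14.8% to 30.3% of the earlier stages. miR-200b-3p took 39.4% (21°C) and 36.0% (15°C) at 75Ep, above the 15.1% to 29.1% of the later stages. Its reads per read of miR-429-3p were 2.66 (21°C) and 1.73 (15°C) at 75Ep, against 0.551 and 0.799 at 20S. For every read of miR-429-3p there were 6.35 (21°C) and 6.12 (15°C) reads of miR-200a-3p at Met, against 2.12 (21°C) and 1.61 (15°C) at Hatch.

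Grouped by seed, miR-200b-3p, miR-200c and miR-429-3p together gave, at 21°C, 1.20 times the reads of miR-200a-3p with miR-141 at 75Ep, 0.740 times at 20S, 1.08 times at Hatch and 0.491 times at Met. At 15°C the ratio was 1.41, 1.29, 1.28 and 0.390 at the same stages. Both Met libraries thus lay below the other 6, and in each stage but Met the 21°C library lay below the 15°C library. Over the 8 libraries together the mean log2 ratio was -0.15 ± 0.71 (SD), and an exact sign-flip test against 0 gave p = 0.555 (two-sided). The contrast of Met with the other stages was seen in the values and was not tested. Since the near-identical partners share a seed group, this ratio does not depend on how reads were split between them.

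**Figure D3:**
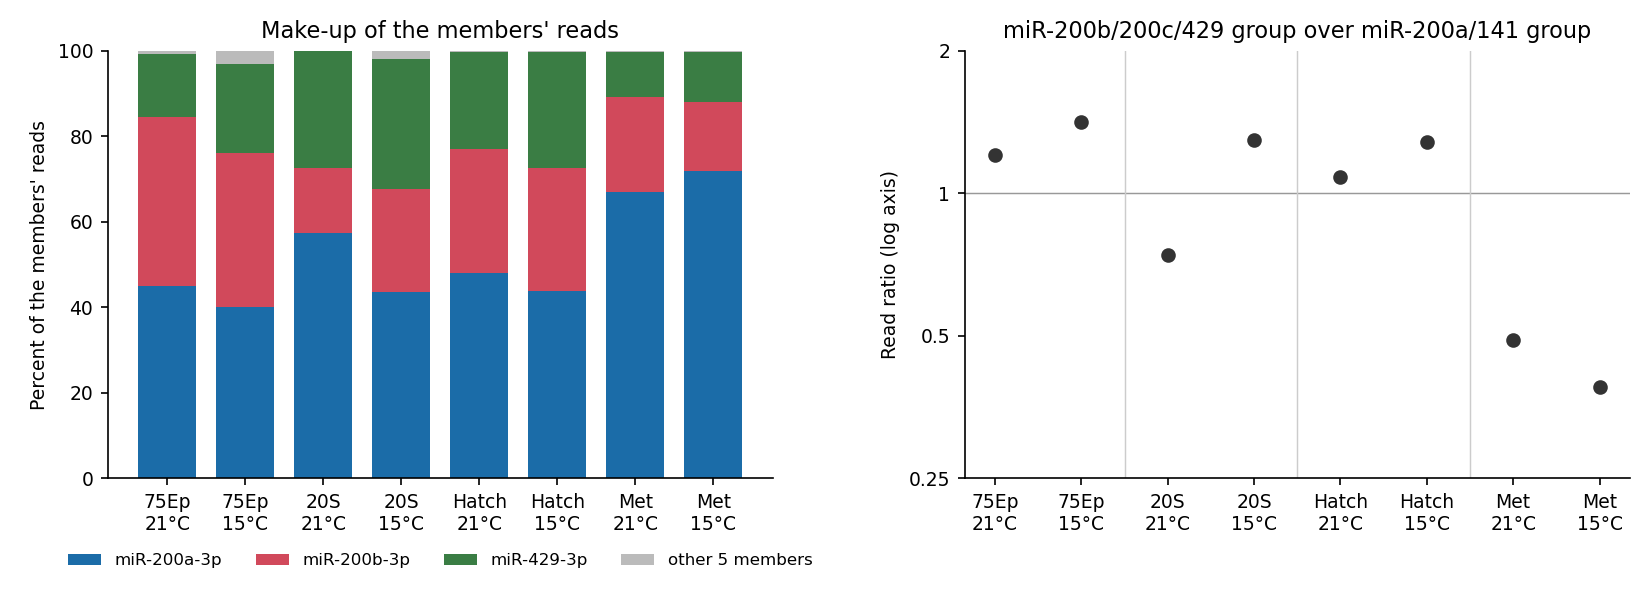
Left: share of each abundant strand in the reads of the 8 members, by library, 21°C left of 15°C. Right: reads of the miR-200b, miR-200c and miR-429 seed group over those of the miR-200a and miR-141 seed group (log axis), which was 0.491 and 0.390 at Met (21°C and 15°C) and between 0.740 and 1.41 in the other libraries.

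Of the rare members, miR-200c and miR-141 had no read at 75Ep in either library, so against 75Ep only a rise could be called for them. miR-200c then had 3, 19 and 18 reads at 20S, Hatch and Met in the 21°C libraries, and 117, 12 and 56 in the 15°C libraries. The 117 reads of the 20S 15°C library are thus 52.0% of all its reads and fall in a single library. Taking 3 reads over both 75Ep libraries as the floor, its pooled share was at least 6.79-fold higher at Hatch and at least 13.3-fold higher at Met than at 75Ep. At 20S the pooled share was at least 33.8-fold higher, but the 21°C library alone held 3 reads, which is the floor itself and gives no fold. In limma miR-200c passed at 20S (adjusted p = 0.0146) and at Met (adjusted p = 0.00521), but its call at 20S was lost without the 20S 15°C library (adjusted p = 0.155), and likewise without 75Ep 15°C, 20S 21°C, Hatch 21°C, Met 21°C or Met 15°C (adjusted p of 0.0502 to 0.119), and its call at Met without Met 15°C (adjusted p = 0.109), Met 21°C (adjusted p = 0.0872) or 75Ep 15°C (adjusted p = 0.0598).

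miR-141 had 2, 4 and 8 reads at 20S, Hatch and Met in the 21°C libraries, and 1, 4 and 12 in the 15°C libraries. Its pooled share was at least 3.60-fold higher at Met than at 75Ep, and this passed in limma (adjusted p = 0.00291). With no read of miR-141 at 75Ep, only a rise could be called, and the p-values depend on the value put in for 0 reads. At 20S over 75Ep it missed the threshold (adjusted p = 0.0836) on the deposited scale and passed it after rescaling (adjusted p = 0.0411). With miR-141 and miR-200c each summed with its near-identical partner, 3 of the 6 rows left rose at Met over 75Ep.

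The 5p strands were scarcely read. miR-429-5p had 3 reads in each 21°C library and 2, 5, 9 and 1 reads in the 15°C libraries of 75Ep, 20S, Hatch and Met, and was the only 5p strand found in all 8 libraries. miR-200b-5p was found in 3 libraries, with 1 read at 75Ep 21°C, 2 at 20S 15°C and 2 at Hatch 21°C. Neither passed the test in any comparison on the deposited scale, and the log2 difference of Met over 75Ep was -1.40 (miR-429-5p, adjusted p = 0.271) and -1.10 (miR-200b-5p, adjusted p = 0.451). Centred on the median miRNA, miR-429-5p passed at -5.86 (adjusted p = 0.0233).

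The 3p strand outnumbered the 5p strand in all 8 libraries for each of the 3 precursors. Over the libraries together, miR-200a-3p had 50385 reads beside 3.85 for the 5p strand (values of at least 1 read), miR-200b-3p 17513 beside 5, and miR-429-3p 14865 beside 29. The mean log2 ratio was 11.7 ± 3.7, 10.5 ± 2.4 and 8.15 ± 2.58 (SD, n = 8), each with p = 0.00781 in an exact sign-flip test, the smallest p that 8 libraries allow, and 0.0104 after Benjamini-Hochberg adjustment over 4 tests. With 5p strands at 0 in 6 libraries for miR-200a and 5 for miR-200b, entered as 0.5 read, these means depend on depth. The test took the libraries of a stage as independent, and with every ratio above 0 its p is set by the number of libraries. In miR-429, the 5p strand was 2.97% (21°C) and 6.25% (15°C) of the reads of both strands at 75Ep. These shares rest on 3 (21°C) and 2 (15°C) reads of the 5p strand. In the 6 later libraries the 5p strand was at most 0.290%, on 1 to 9 reads.

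miR-200a-5p needs a separate word, since its values are not whole reads. They come to 1.26 reads in the 21°C library of 75Ep, 2.58 in its 15°C library and 0.346 read at 20S 21°C, with none in the other 5 libraries. The 75Ep 15°C value equals 2 reads if it is multiplied by the trimmed total of the 75Ep 21°C library, and the other 2 values are whole under no library's total. With 3 reads over both libraries of a later stage as the floor, the log2 bound was -0.60 at 20S and -1.25 at Met over 75Ep. The fitted change depends on the value put in for 0 reads and is not given, and the 2 values at 75Ep on which it rests do not stand for whole reads of their own libraries.

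No member passed the test for incubation temperature across stages. Over the 4 stages, paired by stage, 0 of the 8 members passed at 21°C against 15°C in limma, 0 had an unadjusted p below 0.05 and 0 passed by voom, and 0% of all miRNAs rose or fell. The mean difference was 0.39 (SE 0.75) for miR-200a-3p, 0.22 (SE 0.70) for miR-200b-3p and -0.03 (SE 0.69) for miR-429-3p, so differences of more than 2-fold in either direction lie within about 2 standard errors. Without either 75Ep library, miR-200a-3p turned to -0.40 and miR-200b-3p to -0.61.

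Within stages the libraries of the 2 temperatures differed in opposite ways, with 1 library each and no test. At 75Ep the 21°C library was higher for all 3 abundant strands. The ratio of shares at 21°C over 15°C was 6.64 for miR-200a-3p (95% interval 4.997 to 8.96, counting error only), 6.49 for miR-200b-3p (4.80 to 8.91) and 4.22 for miR-429-3p (2.78 to 6.58). These 3 of the 5 members read in both libraries were at least 2-fold higher, beside 49.2% of the 193 miRNAs read in both, and 0 of the 5 were at least 2-fold lower, beside 9.84%. Centred on the median miRNA the ratios were 3.50, 3.42 and 2.23, and 25.9% of the miRNAs were then at least 2-fold higher.

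At Met, in larvae that had shared 1 rearing temperature since hatching, the order was the reverse. miR-200a-3p was at 0.155% in the 21°C library and 0.545% in the 15°C library, a ratio of 0.284 (95% interval 0.276 to 0.292). The ratio was 0.418 (0.398 to 0.439) for miR-200b-3p, 0.273 (0.255 to 0.292) for miR-429-3p and 0.376 (0.208 to 0.649) for miR-200c. These 4 of the 6 members read in both libraries were at least 2-fold lower, beside 64.3% of the 258 miRNAs read in both, in libraries whose miRNA share was 17.9% and 46.0%. Rescaled to the summed miRNA reads, the ratios were 0.731 for miR-200a-3p, 1.08 for miR-200b-3p, 0.704 for miR-429-3p and 0.968 for miR-200c, and 0 of the 6 members were at least 2-fold lower, beside 11.2% of the miRNAs. The 1 member at least 2-fold higher at Met was miR-429-5p, on 3 and 1 reads, beside 4.26%.

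At 20S and Hatch the abundant strands differed by less than 2-fold. At 20S the ratio was 1.61 (1.53 to 1.70) for miR-200a-3p, 0.762 (0.701 to 0.827) for miR-200b-3p and 1.10 (1.03 to 1.18) for miR-429-3p, so the first was higher and the second lower at 21°C beyond counting error. The reads of miR-200c at 20S gave a ratio of 0.0332 (0.00675 to 0.0994), 1 of 6 members at least 2-fold lower beside 9.24% of 238 miRNAs. The only member at least 2-fold higher at 20S was miR-141, on 2 and 1 reads, beside 11.3%. At Hatch the ratios were 0.958 (0.921 to 0.996) for miR-200a-3p, 0.884 (0.841 to 0.930) for miR-200b-3p and 0.727 (0.688 to 0.767) for miR-429-3p. There, miR-200c, on 19 and 12 reads, was at least 2-fold higher beside 12.1% of the miRNAs read in both, and miR-429-5p, on 3 and 9 reads, at least 2-fold lower beside 12.5%. The ratios were 2.10 (0.966 to 4.74) for miR-200c and 0.441 (0.0769 to 1.77) for miR-429-5p, so both intervals include a ratio of 1. Rescaled to the summed miRNA reads, they were 1.71 for miR-200c and 0.360 for miR-429-5p.

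**Figure D4:**
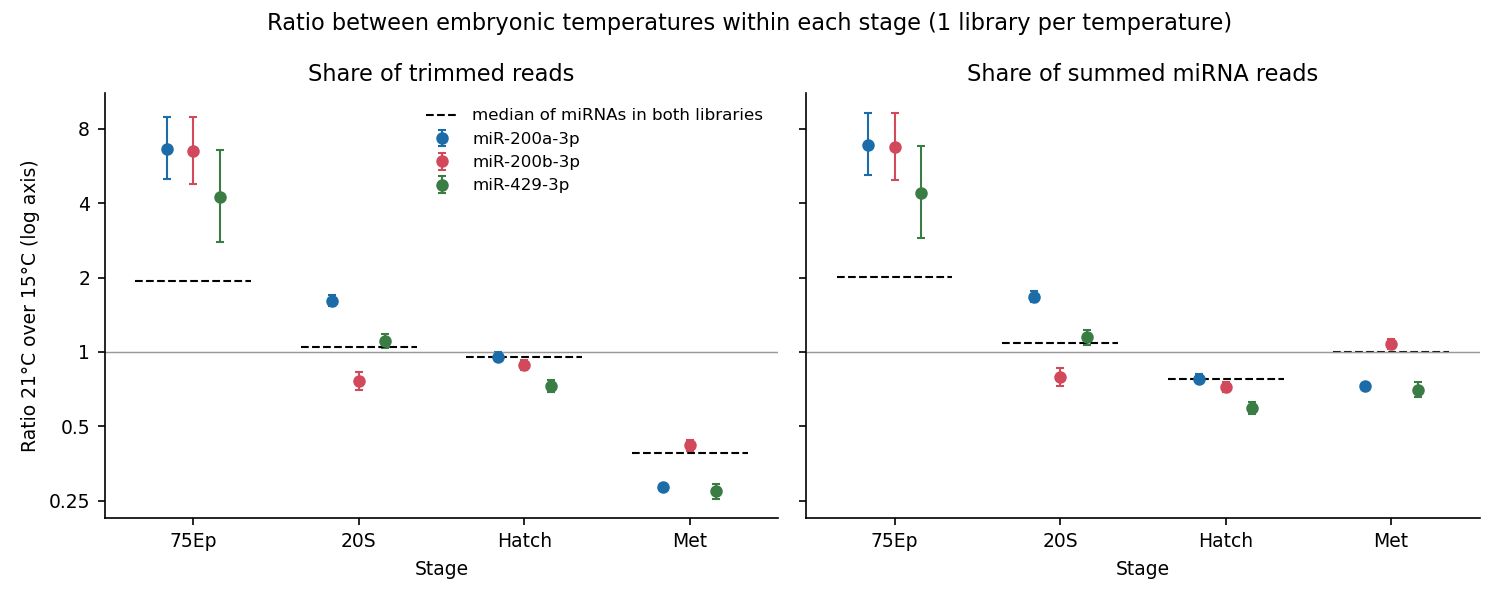
Ratio at 21°C over 15°C (log axis) of the 3 abundant strands within each stage, as shares of trimmed reads (left) and of summed miRNA reads (right), with exact 95% counting intervals. Dashed lines are the medians of the miRNAs read in both libraries. The ratios ran from 4.22 to 6.64 at 75Ep and from 0.273 to 0.418 at Met in the left panel, and from 0.704 to 1.08 at Met in the right panel.

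The abundant strands followed each other over the 8 libraries, with Pearson's r of 0.97 between miR-200a-3p and miR-200b-3p, 0.94 between miR-200a-3p and miR-429-3p and 0.95 between miR-200b-3p and miR-429-3p in log2 percent. The median r with miR-200a-3p over the other miRNAs detected in all libraries was 0.85. Outside the family, the profiles most like that of miR-200a-3p, the member with the most reads, were miR-124-3p (r = 0.99), miR-15b (r = 0.99) and miR-107b (r = 0.98). After centring they were miR-15b (r = 0.89), miR-124-3p (r = 0.88) and miR-205-5p (r = 0.87), where the median was 0.05 and miR-200a-3p had an r of 0.54 with miR-200b-3p and 0.68 with miR-429-3p. These values describe 8 libraries that differ in stage, depth and miRNA share, and all miRNAs were read in these same libraries.

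miRNAs of other epithelia and of mesenchyme were counted beside the family in the same fits. Of the 6 strands of the skin miRNAs miR-203 and miR-205, 3 rose at 20S over 75Ep (39.3% of all miRNAs did), and at Met over 75Ep 2 rose and 1 fell (63.4% and 5.42% of all miRNAs). The 4 strands of miR-96, miR-182 and miR-183, known from sensory epithelia, rose in both comparisons. Of the 4 gut miRNAs miR-192, miR-194 and miR-215, 1 rose at 20S and 3 at Met. miR-194b and miR-215 had no read at 75Ep or 20S, so neither could be called at 20S. At Met over 75Ep only a rise could be called for them. The 5 strands of miR-199 and miR-214, which are known from mesenchyme, had 2 calls at 20S and 5 at Met over 75Ep, and 4 of them rose at Met over Hatch (13.6% of all miRNAs did). Of the gut miRNAs, 1 rose at Met over Hatch, and the skin and sensory strands had 0 calls there. The median log2 change of Met over Hatch was 3.22 for the gut list and 3.54 for the mesenchyme list. These lists include miR-194b and miR-199b, which were read only at Met. For both, only a rise could be called at Met, and its size depends on the value put in for no reads. None of these 4 lists was tested against the family.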

How the data were processed

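The authors clipped and filtered the SOLiD reads with CLC Genomics Workbench, discarded reads of other small RNAs after BLAST searches and compared what remained with miRBase. The deposited log2 values are, per the values themselves, log2 of the percent of the trimmed reads of a library, and 1e-14 percent stands for no read. Reads were recovered from these values, and 99.5% of 2033 values above the lowest were whole within 0.01 read. Other totals were tried at a tolerance of 1e-04 read. Members and lists were chosen with earlier results of these data known. The members named are all rows of miR-200, miR-141 and miR-429.

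limma 3.58.1 (R 4.3.3) was run over 295 miRNAs with stage and temperature as terms, 3 residual degrees of freedom, a trend in the variance prior and p-values adjusted by Benjamini-Hochberg per comparison (threshold 0.05, two-sided). Values under 1 read were set to -16.60, which lies 1 log2 unit under the lowest value that 1 read gives, so a fitted change of a member with no reads depends on this value. The code was checked on simulated data. Sign-flip tests, intervals (exact, conditional binomial for ratios) and figures used Python 3.11.15, numpy 2.4.6, pandas 2.3.3, scipy 1.17.1 and matplotlib 3.10.9. Intervals cover counting error only. With no replicate pools, the spread behind the limma p-values is the departure of the stages from a common temperature difference. The sign-flip tests took the libraries of a stage as independent. Alternatives changed the scaling, the value of undetected miRNAs, pseudocounts, filters, the model terms, the variance trend, the test (voom) and the rows (near-identical strands summed), and left out each library. A fit without the miRNAs whose values are not whole reads was added after the data were seen. The near-identical pairs were taken from the mature sequences that the study lists, and positions of the members were not used here.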

Additional observations from a re-analysis of the deposited data

Results flagged for a closer look

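The difference between 21°C and 15°C was opposite in direction at 75Ep and at Met for the 3 abundant strands, with intervals that exclude a ratio of 1 at both stages. On the log2 scale the ratio of 21°C over 15°C at 75Ep lay above that at Met by 4.55 for miR-200a-3p, 3.95 for miR-200b-3p and 3.95 for miR-429-3p. The median over all miRNAs read in both libraries was opposite too, at 0.95 at 75Ep and -1.36 at Met. Rescaled to the summed miRNA reads, the 3 differences were 3.24, 2.64 and 2.64, beside 1.002 for the median. Each stage had 1 library per temperature, so this difference was not tested, and the intervals cover counting error only. The opposite direction at Met was absent for miR-200b-3p after rescaling to the summed miRNA reads, and the miRNA share of the trimmed reads at Met was 17.9% at 21°C and 46.0% at 15°C. Centred on the median miRNA, the log2 ratio of miR-200b-3p was 1.77 at 75Ep and -0.14 at Met.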

How the results depend on the processing

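Members that rose at 20S over 75Ep numbered 4 and were 2 after rescaling and 0 to 4 without 1 library. The 1 called as lower, miR-200a-5p, from which nothing is read, was 0 with undetected values as deposited, with the filter at the median abundance, without the miRNAs of values that are not whole reads, and 0 to 1 without 1 library. At Met over 75Ep the 5 that rose were 3 after rescaling, 2 after centring, 3 with the filter at the median abundance (where 3 members are tested), 3 with near-identical strands summed (6 rows) and 2 to 5 without 1 library, and the 1 that fell was 2 after centring and 0 both with that filter and without values that are not whole reads. The 6 calls of the F-test were 3 after rescaling, centring, with undetected values as deposited and with that filter, and 2 to 5 without 1 library. No share of all miRNAs called is given for these alternatives, so the counts do not tell the family from other miRNAs. At Met over 75Ep the median change over all 295 miRNAs was 4.07, and it was 2.55 after rescaling and 0.61 after centring. Values of members with no reads at a stage depend on the value put in for 0 reads, which spreads wider once libraries are rescaled or centred. Such members made up the F-test calls left after rescaling and after centring, which were miR-141, miR-200c and miR-200a-5p. None of the 3 abundant strands was called there. The rises left at 20S over 75Ep after rescaling, and at Met over 75Ep after centring, were those of miR-200c and miR-141. For these 2 only a rise could be called. Counts of 0 at Hatch over 20S, Met over Hatch and between temperatures were 0 under all alternatives run.

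Signs turned in values that had not passed the test, and in 2 that had. At Hatch over 20S, centring gave -0.94 for miR-200a-3p, -0.22 for miR-200b-3p and -1.03 for miR-429-3p, rescaling gave -0.015 for miR-429-3p, and without 1 library miR-429-3p ranged from -0.024 to 0.55. At Met over Hatch, without 1 library, miR-200a-3p ranged from -0.36 to 2.58, miR-200b-3p from -1.09 to 0.88 and miR-429-3p from -1.88 to 0.58. Between temperatures these ranges were -0.40 to 1.12, -0.61 to 0.71 and -0.73 to 0.59, and rescaling gave 0.27 for miR-429-3p. At Met over 75Ep centring gave -0.40 for miR-200b-3p and -0.060 for miR-429-3p, which had both passed on the deposited scale. Both centred values were smaller than their standard errors. The ratio of miR-200b-3p between temperatures at Met, -1.26 on the log2 scale, was 0.11 rescaled and -0.14 centred. The cause was not tested. The mean log2 ratio of the seed groups was 0.022 without Met 15°C and ranged from -0.24 to 0.022 without 1 library. The strand ratios lie above 0 in each library, so leaving 1 out cannot turn them. Replicates could not be paired, since triplicate samples were pooled into 1 library per stage and temperature. The fit pairs the temperatures by stage, and the strand and seed group ratios are taken within each library. Depth limits the 5 rare members, whose counts were mostly under 20 reads.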

Other observations

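Of the 2033 values above the lowest, 10 values in 6 miRNAs were not whole reads of their own library, and 3 of these were those of miR-200a-5p. With the trimmed total of another library in place of their own, 7 of the 10 became whole within 1e-04 read, and for 6 of the 7 this was the total of the other temperature of the same stage. Besides miR-200a-5p, miR-1a-5p and miR-1a-3p at both temperatures of Hatch and miR-1c in the 21°C library were among them. Why these values are so was not tested.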
